A study of Homo sapiens with 9 samples.

Results

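The nuclear genes of respiratory complexes II, III, IV and V were followed in RNA-seq libraries of HK-2, a papillomavirus-transformed line of human kidney tubule epithelium. The members are the protein-coding genes of the deposited table whose symbol is CYC1 or begins with SDHA to SDHD, UQC, COX and a digit, or ATP5. They number 67 of 62703 genes: 8 of complex II, 13 of complex III, 26 of complex IV and 20 of complex V. By role, 40 are subunits of the complexes, 17 are assembly factors, 6 are tissue isoforms of complex IV, 3 are copy genes and 1 is the inhibitor of complex V.

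The series bears on MYDGF, a secreted growth factor, and mitochondria in injured kidney tubules, and has 3 groups of 3 libraries. Untreated cells (libraries 1, 2 and 3) and cells given aristolochic acid (libraries 1, 4 and 6), a plant toxin of the kidney tubule, carry the genotype label WT. Aristolochic acid was given at 5 µg/ml for 48 h. The MYDGF group (libraries 1, 3 and 4) received the same aristolochic acid and an adenovirus (vector GV314) that overexpresses MYDGF. Culture in 5% serum and serum starvation for 12 h are stated for all 9 libraries. No control vector is named for the other groups and no vehicle for untreated cells, so MYDGF and virus cannot be told apart, nor can toxin and vehicle. The treatment text of untreated 2 and 3 and of MYDGF 3 and 4 reads HK-3 or HK-4 where the cell line entry reads HK-2, and they are taken as HK-2 here. Positions are on GRCh38. Values are listed in the order of these library numbers, and the MYDGF group always means MYDGF with aristolochic acid.

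Library totals ran from 10.877 to 14.255 (in units of 1e6 counts), of which members took 0.508 to 0.598%. MYDGF itself stood at 123 to 131 CPM (counts per 1e6 counts of the library after TMM scaling) in untreated cells, 74.2 to 105 with aristolochic acid and 510 to 663 in the MYDGF group. The 7 kidney epithelial markers summed to 1081 to 1122 CPM in untreated cells, 1576 to 1711 under the toxin and 1391 to 1414 in the MYDGF group. Of 5 tested, 4 rose and CDH1 (E-cadherin) fell with the toxin (-1.13, edgeR adjusted p = 1.94e-05). The keratin KRT8 stood at 560 to 1001 CPM over all libraries and PAX8, a kidney epithelial factor, at 0.227 to 1.17 CPM. The 11 proximal tubule markers summed to 12.4 to 12.7 CPM without treatment, 22.4 to 33.1 under the toxin and 17.3 to 19.99 in the MYDGF group, and the transporters SLC22A6 and SLC22A8 had no count in any library. The 5 endothelial markers summed to 1.29 to 1.43, 7.85 to 13.8 and 3.83 to 4.31 CPM in the same order. Summed leukocyte markers stayed at 1.70 to 5.45 CPM with CD3E at 0, fibroblast markers at 8.28 to 15.1 CPM, and muscle markers at 6.48 to 10.5 CPM. The part of these marker changes in the results on members was not tested. In bulk RNA, a change in the number of cells of a kind and a change in RNA per cell cannot be told apart.

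The respiratory chain sits in the inner mitochondrial membrane. Complex II oxidizes succinate of the citric acid cycle and passes the electrons to ubiquinone. Complex III takes them from ubiquinol to cytochrome c, complex IV passes them to oxygen, and complex V makes ATP from the proton gradient that the chain builds up. Complex II is encoded by nuclear genes alone, whereas complexes III, IV and V each join nuclear subunits to subunits encoded in mitochondrial DNA. Most assembly factors insert haem, copper, flavin or iron-sulfur groups or hold early intermediates and are not part of the finished enzyme. COX7A2L, which links finished complexes into supercomplexes, is counted with them here. The proximal tubule relies on this chain for the ATP that drives reabsorption.

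Most subunits that passed the test were lower with aristolochic acid, by less than 2-fold, while the assembly factors went both ways. The 61 tested members were set against untreated cells in the edgeR fit across 18267 genes, in which a call is an adjusted p under 0.05. With aristolochic acid 24 of the 61 fell and 5 rose. Among all genes tested, 29.3% fell and 29.7% rose. The median log2 fold change was -0.17 over the 61 members and -0.01 over all genes. Subunits made up 17 of the falls and 1 of the rises out of 40, and assembly factors 7 of the falls and 4 of the rises out of 17. Only COX20 passed with a change of at least 2-fold, against 25.3% of all genes. By complex, falls and rises numbered 4 and 1 of 8 for complex II, 6 and 1 of 13 for complex III, 8 and 2 of 21 for complex IV, and 6 and 1 of 19 for complex V. The complex medians lay close together at -0.20, -0.21, -0.11 and -0.20.

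With MYDGF the calls pointed mostly upward. Against aristolochic acid alone, 16 of the 61 members rose and 1 fell, where 14.7% of all genes rose and 14.7% fell. The median log2 fold change was 0.17 over the members and 0.01 over all genes. The rises numbered 2 in complex II, 5 in complex III, 4 in complex IV and 5 in complex V, with medians of 0.05, 0.23, 0.03 and 0.14. The 1 fall was SDHD, and without aristolochic acid library 1 the falls numbered 3, with COX10 and COX18 added (edgeR adjusted p = 0.0232 and 0.00364). In that setting COX18 was also 0.71 higher with the toxin than in untreated cells (edgeR adjusted p = 0.000864). COX18 stood at 17.3, 17.8 and 17.5 CPM in untreated cells, 13.6, 32.0 and 25.3 under the toxin and 17.3, 18.7 and 18.3 in the MYDGF group. Both comparisons use the same 3 aristolochic acid libraries, so a fall in the one and a rise in the other are not independent, and the values are set side by side below.

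**Figure D1:**
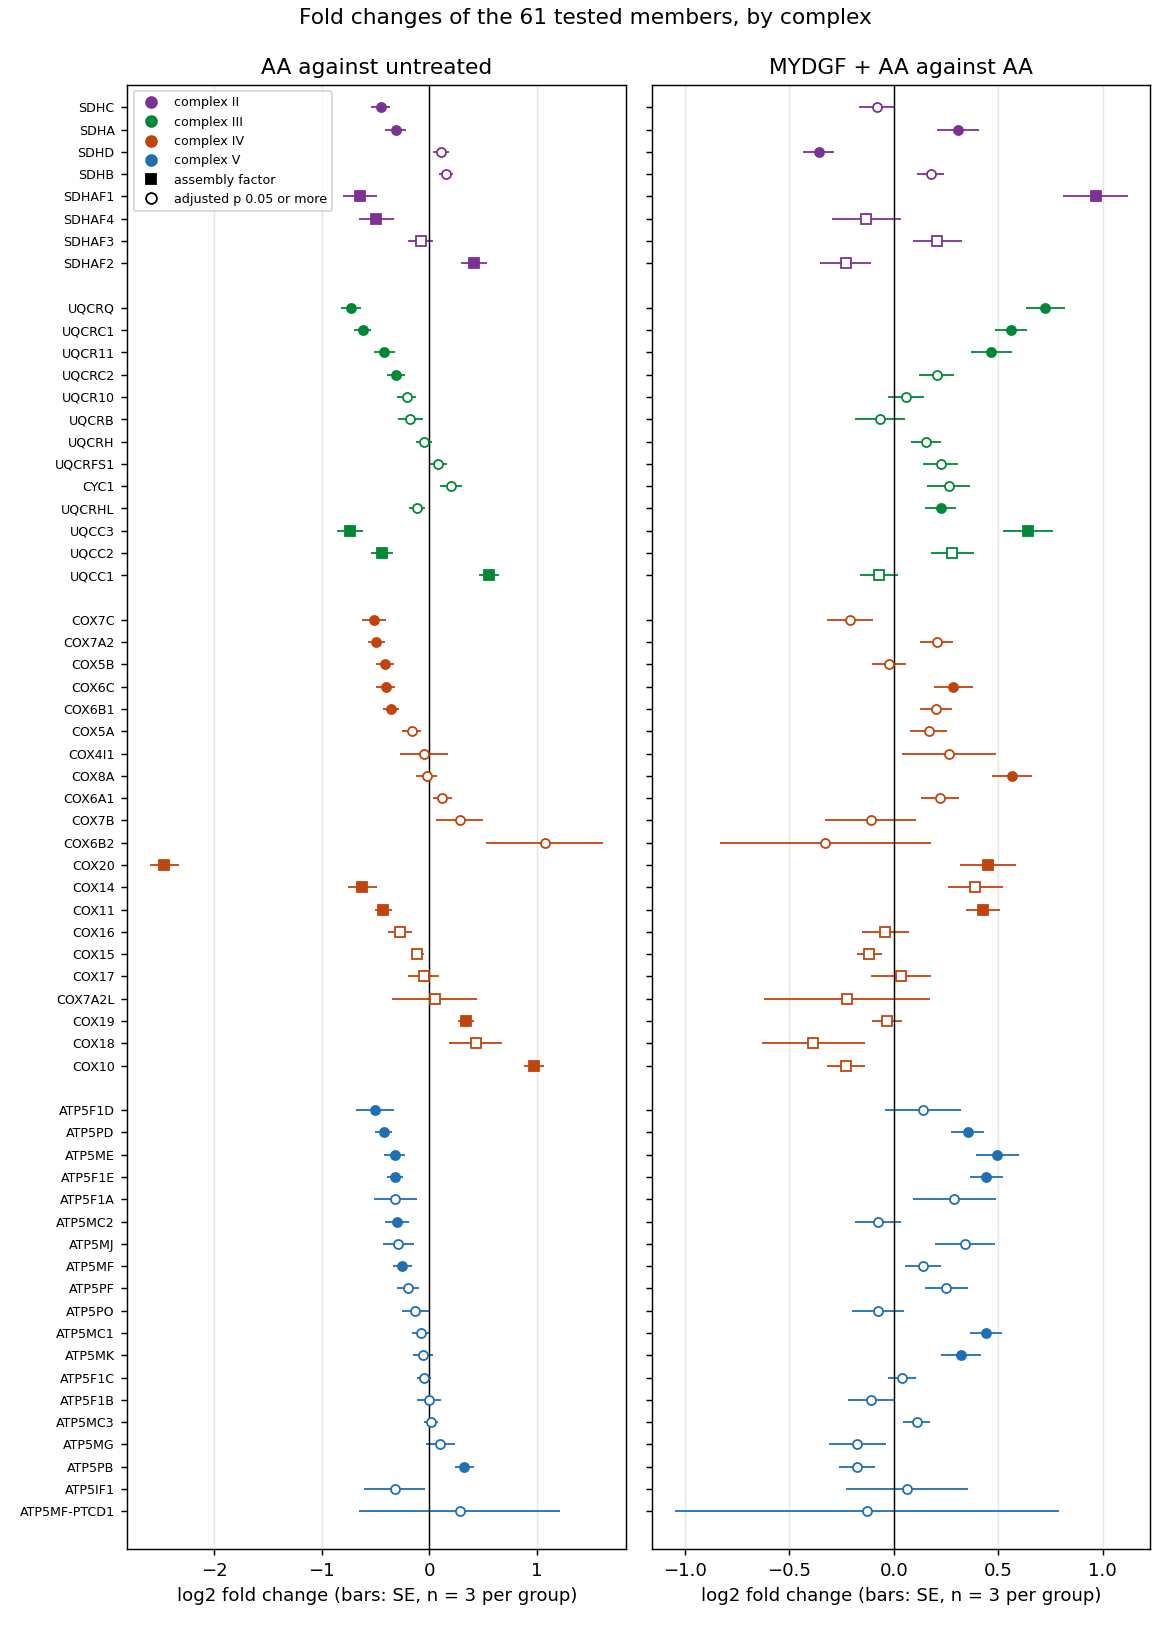
Log2 fold change of each tested member (x axis) with the SE of the edgeR fit, n = 3 per group, by complex from top to bottom; AA is aristolochic acid. Filled symbols passed the test; 24 lie to the left and 5 to the right in the first panel, 1 to the left and 16 to the right in the second.

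The levels spanned a wide range before any treatment. Per length, in the authors' FPKM, the median member of untreated cells stood at 14.9 in complex II, 23.5 in complex III, 7.24 in complex IV and 19.8 in complex V. Subunits of complex II were the most even, from 16.6 to 30.1 FPKM. Subunits of complex IV ran from 6.43 FPKM for COX4I1, a regulatory subunit, to 332 FPKM for COX8A, a small membrane subunit. In CPM, which is not divided by length, the 2 genes lay much closer, at means of 98.5 and 165.8 in untreated cells. In complex V, subunits ran from 5.09 FPKM for ATP5MJ to 102 FPKM for ATP5F1B, the catalytic beta subunit. In complex III, subunits ran from 10.7 FPKM for UQCRB to 78.2 FPKM for UQCRH. The order of these 2 was the reverse in CPM, at untreated means of 179.3 for UQCRB and 151.9 for UQCRH. The median of assembly factors lay below that of subunits in the same complex: 8.22 against 20.02 FPKM in complex II, 6.40 against 32.9 in complex III and 6.45 against 33.1 in complex IV. These levels are descriptions with no test.

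**Figure D2:**
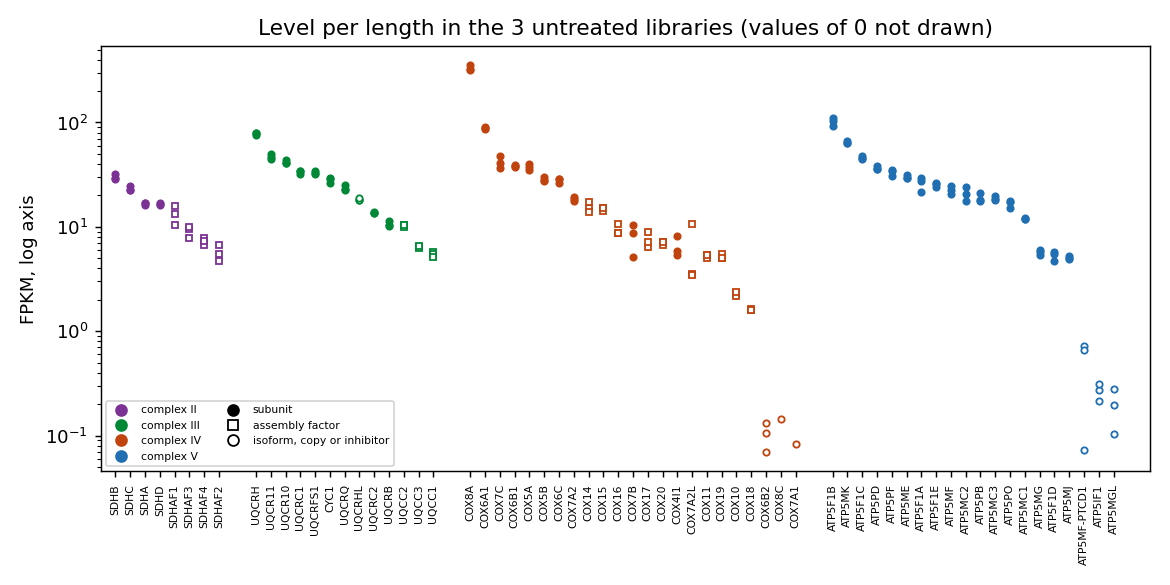
FPKM of each member (y axis, log scale) in the 3 untreated libraries, one point per library, ordered by level within each complex. Filled circles are subunits; COX8A is highest at a mean of 332 FPKM, and the tissue isoforms, ATP5IF1 and the complex V copy genes lie below 1 FPKM.

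In complex II, the catalytic subunit and a membrane anchor were lower with aristolochic acid, and the factor that matures the iron-sulfur subunit was higher with MYDGF. SDHAF1, which protects the iron-sulfur subunit SDHB while its clusters are inserted (ENSG00000205138, chromosome 19, 35995188 to 35996312), was counted at 18.1, 14.9 and 12.0 CPM without treatment. Its aristolochic acid libraries held 9.72, 9.66 and 9.38 CPM and its MYDGF libraries 16.5, 19.8 and 20 CPM. The aristolochic acid libraries were the lowest 3 of the 9 and overlapped neither group. The log2 change was -0.65 (SE 0.156, edgeR adjusted p = 0.00568) with the toxin and 0.97 (SE 0.155, adjusted p = 0.00286) with MYDGF over the toxin. The latter, 1.95-fold, was the highest rise of any member in the comparison of MYDGF over the toxin.

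SDHC and SDHD form the membrane anchor that holds haem b and the ubiquinone site. SDHC (ENSG00000143252, chromosome 1, 161314381 to 161363206) was counted at 89.8, 89.0 and 98.5 CPM without treatment, 76.0, 62.3 and 64.6 under the toxin and 61.5, 63.5 and 66.9 in the MYDGF group. It fell by 0.45 on the log2 scale with the toxin (SE 0.088, edgeR adjusted p = 0.00176), and its MYDGF libraries lay within or below the toxin range (log2 change -0.08, adjusted p = 0.534). SDHD (ENSG00000204370, chromosome 11, 112086824 to 112120016) was counted at 102, 96.5 and 100.4 CPM, then 118, 104 and 101 CPM, then 79.3, 86.3 and 86.1 CPM. Its MYDGF libraries lay below all 6 others. The log2 change was 0.11 (adjusted p = 0.228) with the toxin and -0.36 (SE 0.075, edgeR adjusted p = 0.00798) with MYDGF over the toxin. Against untreated cells, both were lower in the MYDGF group, SDHC by 0.53 and SDHD by 0.25 on the log2 scale (adjusted p = 0.000991 and 0.0207). The SDHD call was lost without untreated 1 (0.0644), untreated 3 (0.0563) or MYDGF 1 (0.0879). The 6 pseudogenes named after SDHD held 24.0% of its CPM in untreated cells, the largest such share among tested members, and the treatment of reads with several matches was not given in the sources used here.

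SDHA, the flavoprotein that oxidizes succinate, stood at 224, 236 and 237 CPM without treatment, 215, 158 and 188 under the toxin and 226, 229 and 239 in the MYDGF group. Its log2 changes were -0.31 (SE 0.099, edgeR adjusted p = 0.0214) and 0.31 (SE 0.099, adjusted p = 0.044). The fall missed the threshold without untreated 2 (adjusted p = 0.0571), untreated 3 (0.0586) or aristolochic acid 6 (0.0657). The rise with MYDGF was lost in 13 of 16 alternatives, among them 8 of the 9 that leave out a library (adjusted p = 0.061 to 0.139). The 4 pseudogenes named after SDHA had summed means of 26.8, 34.2 and 35.1 CPM in the 3 groups, 11.5, 18.3 and 15.2% of SDHA. Their part in the counts of SDHA was not tested. SDHB, the iron-sulfur subunit, stood at 93.5 to 102 CPM, 105 to 111 CPM and 118 to 130 CPM in the 3 groups, with log2 changes of 0.16 (adjusted p = 0.0596) and 0.18 (adjusted p = 0.0648). The first passed in 9 of 16 alternatives, at 0.18 to 0.20 (edgeR or DESeq2 adjusted p = 0.0179 to 0.0467). Of the other assembly factors, SDHAF2, which helps attach flavin to SDHA, rose with the toxin by 0.42 (SE 0.123, adjusted p = 0.0152; 0.0501 without untreated 3). SDHAF4, which binds flavinated SDHA, fell by 0.49 (SE 0.163, adjusted p = 0.0259), a call lost without untreated 1 or 3 or aristolochic acid 4 or 6 (adjusted p = 0.0629 to 0.102). SDHAF3 passed in neither comparison.

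In complex III, UQCRC1, UQCRQ, UQCR11 and UQCC3 fell with the toxin and rose with MYDGF over it. UQCRC1, a core protein on the matrix side (ENSG00000010256, chromosome 3, 48599002 to 48610976), was counted at 188, 177 and 189 CPM without treatment. Its aristolochic acid libraries held 125, 112 and 124 CPM and its MYDGF libraries 165, 195 and 172 CPM. The toxin group lay below both others, and the MYDGF group spanned the untreated range. The log2 changes were -0.62 (SE 0.078, edgeR adjusted p = 0.000143) and 0.56 (SE 0.078, adjusted p = 0.00169), and -0.06 for MYDGF against untreated cells (adjusted p = 0.54).

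UQCRQ, a small subunit that binds next to cytochrome b (ENSG00000164405, chromosome 5, 132866630 to 132868847), was counted at 91.9, 92.5 and 102 CPM, then 64.0, 54.2 and 54.4 CPM, then 86.7, 102 and 96.3 CPM. Again the toxin group lay apart below both others, 1.66-fold down from untreated cells. Its log2 changes were -0.73 (SE 0.093, edgeR adjusted p = 0.000157) and 0.72 (SE 0.093, adjusted p = 0.00135). GDF9, on the opposite strand, shares 20.8% of the exon bases of UQCRQ and changed the other way, with means of 3.08, 10.4 and 2.36 CPM in the 3 groups. The strand setting of the counts was not given in the sources used here, and the part of GDF9 reads in UQCRQ was not tested.

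UQCC3, which stabilizes newly made cytochrome b (ENSG00000204922, chromosome 11, 62670273 to 62673686), was counted at 27.3, 26.4 and 27.9 CPM, then 17.3, 14.1 and 17.6 CPM, then 23.1, 29.04 and 24.5 CPM. The log2 changes were -0.74 (SE 0.121, edgeR adjusted p = 0.00065) and 0.64 (SE 0.121, adjusted p = 0.00522). LBHD1, on the opposite strand, shares 29.2% of the exon bases of UQCC3 and had means of 20.9, 18.9 and 12.2 CPM in the 3 groups. The part of LBHD1 reads in UQCC3 was not tested. UQCR11, a small accessory subunit, stood at 130, 134 and 147 CPM, then 117, 97.0 and 94.4 CPM, then 131, 155 and 141 CPM, with log2 changes of -0.42 (SE 0.099, edgeR adjusted p = 0.00531) and 0.47 (SE 0.099, adjusted p = 0.00861). The other called falls were UQCRC2, the partner core protein (-0.31, SE 0.085, adjusted p = 0.0111), and the assembly factor UQCC2 (-0.44, SE 0.103, adjusted p = 0.00459). With MYDGF over the toxin, UQCRC2 and UQCC2 passed only with a library left out, as without aristolochic acid 1 (0.30 and 0.38, edgeR adjusted p = 0.0119 and 0.0157). UQCC1, which works with UQCC2 on cytochrome b, did the reverse of these falls: it stood at 77.7, 74.2 and 69.7 CPM, then 113, 120 and 94.1 CPM, then 102, 107 and 102 CPM. It rose by 0.56 (SE 0.091, edgeR adjusted p = 0.000649) and stayed above untreated cells in all MYDGF libraries. ITPR3, on the strand opposite to UQCC2, shares 21.9% of the exon bases of UQCC2. ITPR3 had means of 242, 202 and 406 CPM in the 3 groups, above those of UQCC2 at 66.0, 48.6 and 59.0 CPM. Both genes were lowest under the toxin, and the part of ITPR3 reads in UQCC2 was not tested.

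The nuclear redox subunits of complex III, CYC1 and UQCRFS1, did not pass in either of these comparisons with all libraries. CYC1, cytochrome c1, stood at 94.9 to 106 CPM, 103 to 136 CPM and 132 to 146 CPM, with log2 changes of 0.21 (adjusted p = 0.113) and 0.26 (adjusted p = 0.0816). UQCRFS1, the Rieske iron-sulfur protein, stood at 98.99 to 106, 97.9 to 119 and 121 to 136 CPM, with log2 changes of 0.08 and 0.23 (adjusted p = 0.403 and 0.0702). The 3 pseudogenes named after UQCRFS1 had summed means of 23.1, 21.0 and 29.3 CPM in the 3 groups, and their part in its counts was not tested. CYC1 passed with the toxin without aristolochic acid 1 (0.29, adjusted p = 0.029), and with MYDGF over it without aristolochic acid 6 (0.38, adjusted p = 0.0179). UQCRFS1 passed with MYDGF over the toxin without aristolochic acid 4 (0.29, adjusted p = 0.0376). Both rose in the MYDGF group against untreated cells, by 0.47 and 0.31 (edgeR adjusted p = 0.00441 and 0.0121). UQCR10, UQCRB and UQCRH, the hinge protein that docks cytochrome c1, passed in neither of the first 2 comparisons with all libraries. Their log2 changes there lay between -0.21 and 0.16. UQCR10 fell with the toxin without aristolochic acid 4 (-0.28, edgeR adjusted p = 0.0227), and UQCRB without aristolochic acid 1 (-0.31, adjusted p = 0.0314). UQCRH rose with MYDGF over the toxin without MYDGF 1 (0.22, adjusted p = 0.039).

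UQCRHL, a copy gene of UQCRH on the same chromosome (ENSG00000233954, chromosome 1, 15807169 to 15809348, against 46303698 to 46316776 for UQCRH), is shown beside its parent because reads of the pair are hard to assign. The coding sequences differ at 4 of 276 bases (98.6% identical), in capitals here, and at 3 of 92 codons in the encoded residue.
UQCRH: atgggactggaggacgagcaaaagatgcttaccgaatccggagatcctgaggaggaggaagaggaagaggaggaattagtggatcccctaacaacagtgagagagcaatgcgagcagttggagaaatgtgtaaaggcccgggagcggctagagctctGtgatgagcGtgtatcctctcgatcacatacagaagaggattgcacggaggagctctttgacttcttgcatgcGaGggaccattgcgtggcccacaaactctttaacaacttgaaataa
UQCRHL: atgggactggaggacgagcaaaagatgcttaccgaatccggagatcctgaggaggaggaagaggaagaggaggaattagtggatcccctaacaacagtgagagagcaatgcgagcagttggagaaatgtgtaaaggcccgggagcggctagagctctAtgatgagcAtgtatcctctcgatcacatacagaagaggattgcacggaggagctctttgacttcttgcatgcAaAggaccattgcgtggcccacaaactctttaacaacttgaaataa
UQCRH ranged from 148 to 154 CPM without treatment, 145 to 149 under the toxin and 147 to 178 in the MYDGF group. UQCRHL stood at 44.2, 45.1 and 47.4 CPM, then 44.9, 40.9 and 40.8 CPM, then 46.8, 50.04 and 51.0 CPM. Its log2 change with MYDGF over the toxin was 0.23 (SE 0.073, edgeR adjusted p = 0.0457), a call lost in 15 of 16 alternatives and without any library other than aristolochic acid 1 (adjusted p = 0.0605 to 0.156), and that of UQCRH was 0.16 (adjusted p = 0.139). Reads that lie between the differing bases match both genes.

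With the toxin, complex IV held both the largest fall and the largest called rise of all members, each in an assembly factor. COX20, the chaperone of the mitochondrially encoded subunit 2 (ENSG00000203667, chromosome 1, 244835616 to 244845057), was counted at 45.9, 43.0 and 45.7 CPM without treatment. Its aristolochic acid libraries held 8.26, 9.12 and 6.90 CPM and its MYDGF libraries 10.2, 12.8 and 10.3 CPM, so the highest treated library lay well below the lowest untreated one. The fall was 5.53-fold, a log2 change of -2.47 (SE 0.133, edgeR adjusted p = 3.83e-06). The MYDGF group was higher than the toxin group by 0.45 (SE 0.134, adjusted p = 0.0322) and lower than untreated cells by 2.01 on the log2 scale (adjusted p = 8.36e-06). The first of these calls was lost without untreated 1 (adjusted p = 0.0502), aristolochic acid 6 (0.101), MYDGF 3 (0.109) or MYDGF 4 (0.0517).

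HNRNPU, which encodes an abundant nuclear RNA-binding protein, lies on the opposite strand and shares 72.0% of the exon bases of COX20. It stood at 566 to 613 CPM, 823 to 948 CPM and 886 to 956 CPM in the 3 groups, a rise of 0.61 with the toxin (SE 0.063, edgeR adjusted p = 5.01e-05), and so moved the other way. COX20P1, a processed pseudogene of COX20 on chromosome 10 in GENCODE, had 51, 43 and 54 counts in untreated libraries, 9, 11 and 7 under the toxin and 11, 14 and 12 in the MYDGF group. Its log2 change with the toxin was -2.38 (SE 0.216, edgeR adjusted p = 2.59e-05). The part of shared reads in these values was not tested.

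**Figure D3:**
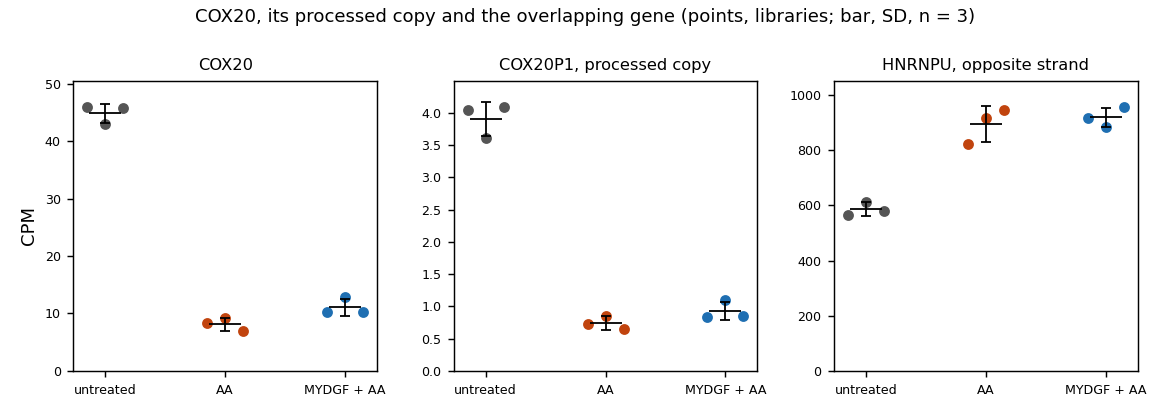
CPM of COX20, of its processed copy COX20P1 and of HNRNPU on the opposite strand (y axes, from 0) in each library, with mean and SD (n = 3); AA is aristolochic acid. COX20 drops from a mean of 44.8 to 8.09 CPM with AA, the copy drops with it, and HNRNPU rises from 587 to 895 CPM.

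COX10, which makes haem O on the way to the haem A of complex IV (ENSG00000006695, chromosome 17, 14069490 to 14231736), was counted at 27.6, 26.1 and 28.6 CPM without treatment. Its aristolochic acid libraries held 48.0, 58.7 and 54.9 CPM and its MYDGF libraries 48.2, 42.8 and 46.9 CPM. It rose by 0.97 with the toxin (SE 0.094, edgeR adjusted p = 3.42e-05), 1.96-fold, and the MYDGF change of -0.23 over the toxin missed the threshold (adjusted p = 0.0885). COX15, which turns haem O into haem A, did not pass in either comparison (-0.11 and -0.12). COX14, which binds newly made subunit 1, stood at 31.3, 28.4 and 35.5 CPM, then 24.0, 19.9 and 18.03 CPM, then 24.5, 28.0 and 28.7 CPM. It fell by 0.62 (SE 0.131, adjusted p = 0.00274), and the MYDGF value of 0.39 missed the threshold (adjusted p = 0.051). Without aristolochic acid 1 the MYDGF value of COX14 was 0.51 and passed (edgeR adjusted p = 0.0152).

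The copper factors of complex IV went separate ways. COX11, which carries copper to subunit 1, stood at 64.3, 59.7 and 64.5 CPM, then 50.3, 42.6 and 47.5 CPM, then 62.6, 59.8 and 66.0 CPM. Its log2 changes were -0.43 (SE 0.081, edgeR adjusted p = 0.00151) and 0.43 (SE 0.081, adjusted p = 0.00548), and the MYDGF libraries overlapped the untreated range. COX19, an intermembrane space protein of copper transfer, rose with the toxin by 0.34 (SE 0.072, edgeR adjusted p = 0.00274). COX17, the copper chaperone that feeds this route, stood at 18.6 to 26.1 CPM over all 9 libraries and passed in neither comparison. COX7A2L, which links complexes III and IV into supercomplexes, stood at 28.2, 27.5 and 86.5 CPM in untreated cells, then 52.8, 56.0 and 38.5 CPM, then 42.0, 37.2 and 46.9 CPM. Its changes did not pass (0.05, adjusted p = 0.92 with the toxin). Without untreated 3 it was 0.82 higher with the toxin (edgeR adjusted p = 0.00422) and 0.59 higher with MYDGF than in untreated cells (adjusted p = 0.0223), where the value with all libraries was -0.17.

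Of the 10 subunits of complex IV, 5 fell with the toxin (29.3% of all genes) and 2 rose with MYDGF over it (14.7% of all genes), the latter near the share of all genes. COX7B and COX6A1 had the highest toxin values, 0.28 and 0.12, and did not pass (edgeR adjusted p = 0.289 and 0.275). COX7C, a small membrane subunit (ENSG00000127184, chromosome 5, 86617928 to 86620962), was counted at 164, 191 and 147 CPM, then 122, 114 and 116 CPM, then 90.2, 99.2 and 115 CPM. It fell by 0.51 with the toxin (SE 0.111, edgeR adjusted p = 0.00325), and the MYDGF group lay 0.72 below untreated cells on the log2 scale (adjusted p = 0.000673). COX5B, the zinc-binding subunit, stayed low in the same way, with means of 62.3, 46.8 and 46.1 CPM (-0.41 with the toxin, SE 0.081, adjusted p = 0.00191). COX7A2, COX6C and COX6B1 fell by 0.49, 0.41 and 0.36 (adjusted p = 0.000541, 0.00389 and 0.00284). With MYDGF over the toxin, COX7A2, COX6A1 and COX6B1 did not pass with all libraries. Without MYDGF 1, COX7A2 and COX6A1 rose by 0.26 and 0.29 (edgeR adjusted p = 0.035 and 0.0315). COX6B1 rose by 0.25 without aristolochic acid 1 (adjusted p = 0.0395). The MYDGF call of COX6C (0.29, adjusted p = 0.0421) was lost in 13 of 16 alternatives and without any library other than aristolochic acid 1 (adjusted p = 0.0509 to 0.146).

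COX8A (ENSG00000176340, chromosome 11, 63974620 to 63976543) was higher with MYDGF and not lower with the toxin beyond its error. It stood at 159, 161 and 177 CPM without treatment, 187, 142 and 161 CPM under the toxin and 232, 251 and 242 CPM in the MYDGF group. The untreated and toxin groups overlapped, and every MYDGF library lay above both. The log2 changes were -0.03 (adjusted p = 0.839) with the toxin, 0.57 with MYDGF over the toxin (SE 0.097, edgeR adjusted p = 0.00361) and 0.54 over untreated cells (adjusted p = 0.00145).

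The tissue isoforms of complex IV, which replace the ubiquitous subunits in heart, muscle, lung or testis, were near or at 0. COX7B2 had no count, COX4I2 and COX7A1 each had 1 count over all 9 libraries, COX6A2 had 2 in MYDGF 4, and COX8C had at most 2 in a library. COX6B2, a testis isoform, had 7, 10 and 14 counts in untreated libraries, 12, 20 and 30 under the toxin and 18, 7 and 31 in the MYDGF group. It was the only tissue isoform tested, with a log2 change of 1.08 at an SE of 0.544 (edgeR adjusted p = 0.116). The ubiquitous partners were well measured. COX6A1 stood at 163 to 174, 175 to 195 and 188 to 240 CPM, and COX4I1 varied as much within as between groups, at 81.5 to 125, 76.3 to 120 and 94.7 to 145 CPM. COX6B1 had means of 78.8, 61.5 and 70.8 CPM and COX7A2 of 69.6, 49.5 and 57.1 CPM.

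**Figure D4:**
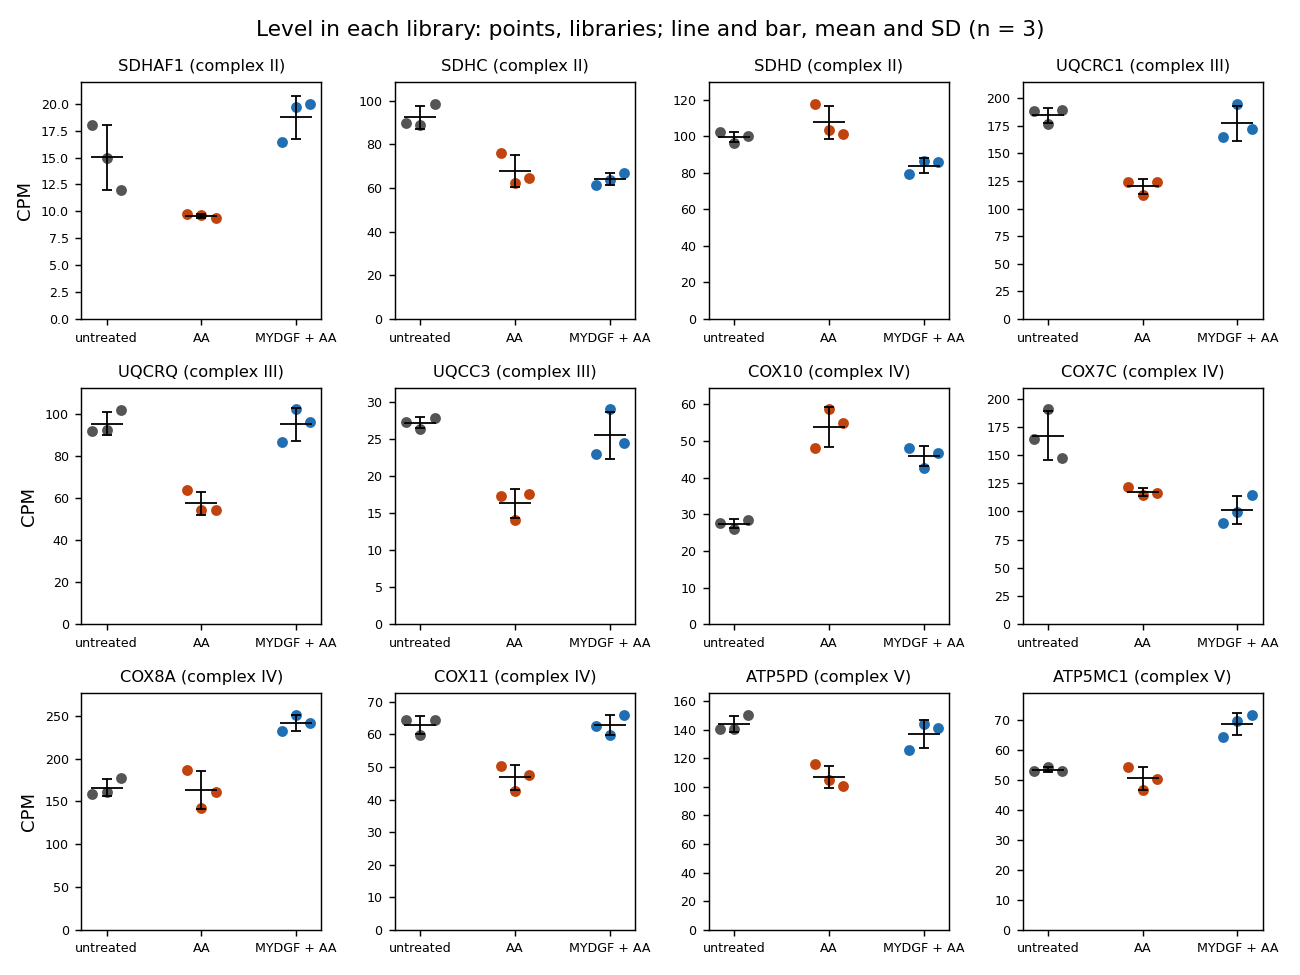
CPM in each library (points, y axes from 0) with mean and SD (n = 3) for 12 members; AA is aristolochic acid. In UQCRC1, UQCRQ, UQCC3, COX11 and ATP5PD the AA libraries lie below both other groups, in SDHC and COX7C both treated groups lie below untreated cells, and in COX8A and ATP5MC1 only the MYDGF libraries lie apart, above.

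Complex V consists of a catalytic F1 head, a peripheral stalk and a membrane part with a ring of c subunits. The alpha, beta and gamma subunits of the head did not pass: ATP5F1A stood at 359 to 485, 312 to 422 and 304 to 494 CPM, ATP5F1B at 488 to 579, 476 to 591 and 452 to 572 CPM, and ATP5F1C at 158 to 172, 149 to 164 and 154 to 170 CPM. Their log2 changes with the toxin were -0.32, -0.00 and -0.05 (edgeR adjusted p = 0.2, 0.976 and 0.573). The small central stalk subunits were lower. ATP5F1E, epsilon, stood at 148, 158 and 163 CPM, then 132, 130 and 115 CPM, then 160, 183 and 170 CPM, with log2 changes of -0.32 (SE 0.077, adjusted p = 0.00591) and 0.44 (SE 0.077, adjusted p = 0.00389). ATP5F1D, delta, fell by 0.51 (SE 0.181, adjusted p = 0.0363), a call lost in 9 of 16 alternatives, among them without any library other than untreated 3 or aristolochic acid 6 (adjusted p = 0.0563 to 0.101).

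In the peripheral stalk, ATP5PD and ATP5PB went opposite ways with the toxin. ATP5PD, subunit d (ENSG00000167863, chromosome 17, 75038863 to 75046985), was counted at 140, 141 and 150 CPM, then 116, 105 and 100.7 CPM, then 126, 144 and 141 CPM. It fell by 0.43 (SE 0.078, edgeR adjusted p = 0.00121) and was 0.35 higher with MYDGF over the toxin (SE 0.078, adjusted p = 0.00975). ATP5PB, subunit b, which spans the membrane, stood at 86.7, 99.5 and 84.2 CPM, then 103, 119 and 118 CPM, then 100.3, 106 and 94.8 CPM. In the edgeR fit of all libraries it was the only subunit of any complex called higher with the toxin (0.33, SE 0.088, edgeR adjusted p = 0.00962). SDHB missed there (0.16, adjusted p = 0.0596) and passed in some alternatives, such as DESeq2 (0.20, DESeq2 adjusted p = 0.0179). CYC1 passed without aristolochic acid 1 (0.29, edgeR adjusted p = 0.029). ATP5PO, which joins the stalk to the head, and ATP5PF passed in neither comparison with all libraries. Without aristolochic acid 1, ATP5PF was 0.29 lower with the toxin and 0.34 higher with MYDGF over it (edgeR adjusted p = 0.0302 and 0.0261). Without aristolochic acid 4, ATP5PO was 0.28 lower with the toxin (adjusted p = 0.0321).

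Of the small membrane subunits, ATP5ME, subunit e, which helps pair the enzyme into dimers, stood at 37.6, 38.2 and 40.8 CPM, then 33.5, 32.1 and 27.5 CPM, then 39.1, 46.6 and 45.7 CPM. Its log2 changes were -0.32 (SE 0.102, edgeR adjusted p = 0.0213) and 0.50 (SE 0.102, adjusted p = 0.00748). The fall was lost without untreated 3 (adjusted p = 0.0718) or aristolochic acid 6 (0.0924). MYL5 on the opposite strand shares 61.6% of the exon bases of ATP5ME and had means of 7.25, 1.8 and 3.07 CPM; its part in the counts was not tested. ATP5MF fell by 0.25 (adjusted p = 0.0324), lost in 10 of 16 alternatives, among them without untreated 2 or 3, aristolochic acid 4 or 6, or MYDGF 1 or 4 (adjusted p = 0.0557 to 0.124). ATP5MK was 0.32 higher with MYDGF over the toxin (adjusted p = 0.0317), lost without aristolochic acid 6 (0.0829), MYDGF 3 (0.111) or MYDGF 4 (0.0675). ATP5MG and ATP5MJ passed in neither with all libraries. Without aristolochic acid 1, ATP5MJ was 0.48 lower with the toxin and 0.53 higher with MYDGF over it (edgeR adjusted p = 0.00308 and 0.00485).

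The c ring is drawn from the genes ATP5MC1, ATP5MC2 and ATP5MC3, whose products differ in the targeting sequence that is cut off on import. The last 228 bases of their coding sequences are shown because the genes encode the same protein there with different bases. All 76 codons, the stop included, read the same in the 3 genes, while 25 bases differ between ATP5MC1 and ATP5MC2 and 43 between ATP5MC3 and either. Capitals mark the positions at which the 3 genes are not all alike.
ATP5MC1: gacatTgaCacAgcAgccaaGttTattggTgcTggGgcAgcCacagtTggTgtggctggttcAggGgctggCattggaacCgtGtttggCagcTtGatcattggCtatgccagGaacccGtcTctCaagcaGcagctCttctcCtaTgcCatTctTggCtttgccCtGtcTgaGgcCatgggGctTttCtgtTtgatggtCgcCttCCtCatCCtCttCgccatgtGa
ATP5MC2: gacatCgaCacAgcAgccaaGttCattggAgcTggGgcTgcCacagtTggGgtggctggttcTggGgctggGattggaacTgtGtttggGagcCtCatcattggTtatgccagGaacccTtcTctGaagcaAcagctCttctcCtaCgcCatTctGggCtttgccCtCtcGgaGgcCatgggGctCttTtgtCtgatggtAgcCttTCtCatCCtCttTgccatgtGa
ATP5MC3: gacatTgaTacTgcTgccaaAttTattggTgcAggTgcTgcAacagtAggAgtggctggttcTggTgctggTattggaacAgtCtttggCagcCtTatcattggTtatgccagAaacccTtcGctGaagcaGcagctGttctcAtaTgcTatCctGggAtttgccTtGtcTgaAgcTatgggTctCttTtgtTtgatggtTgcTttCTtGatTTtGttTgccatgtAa
The calls were not the same for the 3 genes. ATP5MC1 (ENSG00000159199, chromosome 17, 48892765 to 48895871) was counted at 52.9, 54.4 and 53.0 CPM, then 54.5, 46.7 and 50.5 CPM, then 64.6, 69.8 and 71.8 CPM. Every MYDGF library lay above the other 6, with a log2 change of 0.44 over the toxin (SE 0.077, edgeR adjusted p = 0.00385) and 0.36 over untreated cells (adjusted p = 0.00366). ATP5MC2 (ENSG00000135390) stood at 187, 161 and 140 CPM, then 126, 145 and 125 CPM, then 134, 120 and 121 CPM. Its fall with the toxin (-0.30, SE 0.110, adjusted p = 0.0389) was lost in 13 of 16 alternatives, among them without any library other than untreated 3 or aristolochic acid 4 (adjusted p = 0.0585 to 0.149). Its MYDGF group was lower than untreated cells (-0.38, edgeR adjusted p = 0.0177), a call lost without untreated 1 (0.0637), MYDGF 3 (0.0608) or MYDGF 4 (0.0654). ATP5MC3 (ENSG00000154518) stood at 96.0 to 106, 98.1 to 102 and 105 to 114 CPM and passed in neither. Per length, the 3 genes stood at 11.9 ± 0.209, 20.8 ± 3.11 and 18.8 ± 0.871 FPKM in untreated cells and at 15.5 ± 0.758, 16.1 ± 1.12 and 20.6 ± 0.911 FPKM with MYDGF (SD, n = 3).

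ATP5IF1, the inhibitor that stops the enzyme from hydrolysing ATP, was barely counted, with 9, 11 and 14 counts in untreated libraries, 8, 11 and 7 under the toxin and 9, 11 and 10 in the MYDGF group. Its log2 change of -0.32 had an SE of 0.287 (edgeR adjusted p = 0.457), so only a large change was detectable at this depth. Of the copy genes, ATP5MGL had at most 4 counts in a library and was not tested. ATP5MF-PTCD1, a read-through gene with 93.8% of its exon bases in other genes, had 3, 28 and 29 counts, then 36, 5 and 28, then 28, 2 and 42. Its libraries fell into low and high values within every group, and it passed in no comparison.

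Against untreated cells, the MYDGF group had 10 members higher and 10 lower, where 26.8% and 24.3% of all genes were called. The median was -0.01 over members and 0.02 over all genes. Of these, 3 higher ones were in complex III, whose lowest values, UQCRB and UQCC2 at -0.24 and -0.16, did not pass (edgeR adjusted p = 0.122 and 0.209). UQCRB passed as lower when only the 6 libraries compared were fitted (-0.23, edgeR adjusted p = 0.034). UQCRH passed as higher without MYDGF 1 (0.19, adjusted p = 0.0354). Complex II had 1 higher and 3 lower, complex IV 4 and 6, and complex V 2 and 1. Besides COX20, the lowest values were COX7C at -0.72, SDHAF4 at -0.63 and SDHC at -0.53 (adjusted p = 0.000673, 0.0106 and 0.000991). The highest called values were COX10 at 0.74, COX8A at 0.54 and UQCC1 at 0.49 (adjusted p = 0.000212, 0.00145 and 0.00191). The mean summed CPM of each complex was lowest in the toxin group. Complex III members summed to 1326 ± 26.0 CPM in untreated cells, 1161 ± 45.2 with aristolochic acid and 1383 ± 90.1 with MYDGF (SD, n = 3), and the toxin libraries overlapped neither group. Complex IV summed to 1483 ± 56.4, 1325 ± 35.6 and 1476 ± 85.5 CPM. Complex II summed to 596 ± 9.18, 542 ± 40.6 and 581 ± 14.5 CPM and complex V to 2421 ± 47.5, 2193 ± 135 and 2375 ± 37.7 CPM, and in both aristolochic acid library 1 reached into the range of another group.

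**Figure D5:**
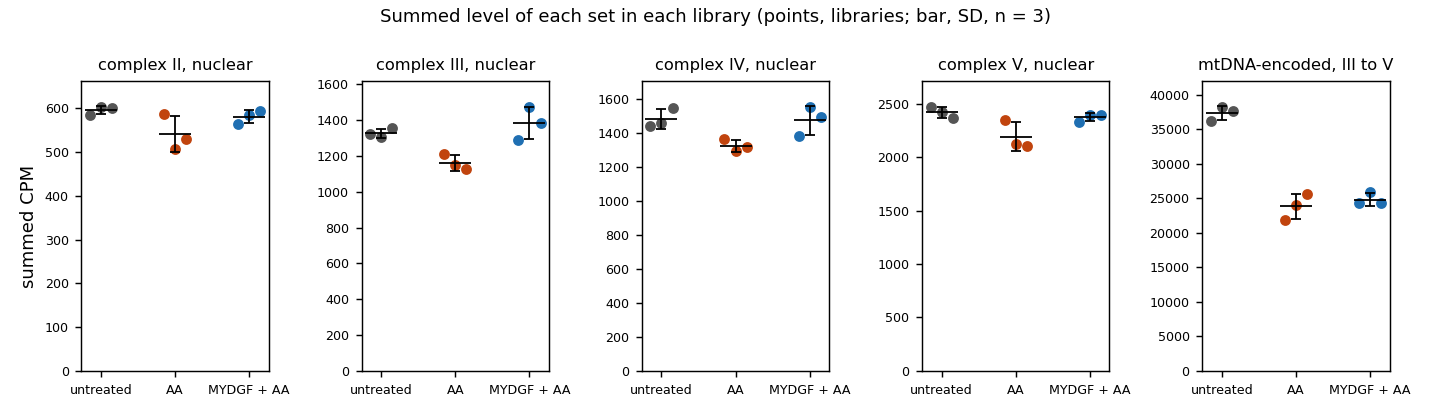
Summed CPM of the nuclear members of each complex and of the 6 mtDNA-encoded subunits of complexes III to V (y axes from 0) in each library, with mean and SD (n = 3); AA is aristolochic acid. The nuclear sums of the MYDGF group lie near untreated cells, and the mtDNA-encoded sum stays at 24260 to 25840 CPM with MYDGF against 36130 to 38140 in untreated cells.

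The partners of these genes in mitochondrial DNA were lower with the toxin and were also lower than untreated cells with MYDGF. The 6 mtDNA-encoded subunits of complexes III to V summed to 36130, 38140 and 37570 CPM without treatment, 21910, 23940 and 25540 under the toxin and 24260, 25840 and 24280 in the MYDGF group. All 6 fell with the toxin (median -0.73), 1 rose and 1 fell with MYDGF over it, and all 6 were lower than in untreated cells. MT-CYB, cytochrome b of complex III, had log2 changes of -0.90 (edgeR adjusted p = 1.17e-05) and 0.03 (adjusted p = 0.752), beside -0.62 and 0.56 for UQCRC1 of the same complex. MT-CO3 and MT-CO2 of complex IV had -0.89 and -0.75 with the toxin, and MT-ATP6 of complex V -0.70. MT-CO2 rose with MYDGF over the toxin by 0.24 (adjusted p = 0.0117), and MT-ATP8 fell by 0.33 (adjusted p = 0.005). The difference between nuclear and mtDNA-encoded genes was not tested.

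Nuclear partner genes that the naming rule leaves out, 33 genes of complexes III to V, had calls in both directions. Most are assembly, import or carrier genes, and NDUFA4 is a subunit of complex IV. Of 32 tested, 12 rose and 9 fell with the toxin (median 0.16), near the 29.7% and 29.3% of all genes. With MYDGF over it 1 rose and 3 fell (median 0.10), where 14.7% of all genes rose and 14.7% fell. The 1 rise was NDUFA4 (0.45, SE 0.142, edgeR adjusted p = 0.0419). COA3, which binds newly made subunit 1 together with COX14, fell by 1.16 (SE 0.141, edgeR adjusted p = 0.000122) and was not different from the toxin group with MYDGF beyond its error (0.01, adjusted p = 0.976). TMEM177, which works with COX20 on subunit 2, fell by 1.09 (adjusted p = 0.00794) and PET117, a complex IV factor, by 0.95 (adjusted p = 0.0116). HCCS, which attaches haem to cytochromes c and c1, rose by 0.98 (adjusted p = 2.43e-05) and was 0.46 lower with MYDGF over the toxin on the log2 scale (adjusted p = 0.00549). Among 13 transcription factors and coactivators of nuclear respiratory genes, 6 rose and 2 fell of 12 tested with the toxin, against the same shares of all genes. PPRC1, a coactivator related to PGC-1alpha, rose by 0.94 (adjusted p = 1.14e-05), GABPB1 by 0.78 (adjusted p = 0.000152), PPARGC1B by 1.35 (adjusted p = 0.0133) and MYC by 2.19 (adjusted p = 0.0289), the last with 12.6, 20.2 and 64.7 CPM in its aristolochic acid libraries. NRF1 and GABPA, which bind many respiratory gene promoters, did not pass (0.08 and 0.01), and PPARGC1A, which encodes PGC-1alpha, had no count in any library.

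The promoters of members were read for the motifs of these factors, since NRF1 and the GABP proteins of the ETS family are known to bind many genes of the chain. RefSeq promoters (GRCh38.p14, the 250 bases before the start) matched 52 of the 67 members, and motifs were searched on both strands. The NRF1 letters GCGCANGCG were in 36.5% of them, against 6.56% of all 35116 promoters and 10.7% of those of genes tested. The ETS letters CCGGAAGT were in 21.2%, against 3.42% and 5.62%. The YY1 letters AAGATGGC were in 1.92%, against 1.36% and 1.69%, and the SP letters GGGCGG in 53.8%, against 42.6% and 61.7%. Among matched members that fell with the toxin, 7 of 18 held the NRF1 letters and 4 of 18 the ETS letters. Among those called neither way, the counts were 10 of 26 and 5 of 26. A match is a description of letters in this window and not a site of binding.

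The promoters of 4 members with large calls are shown so that the letters can be read beside the changes, and they were chosen after values were seen. SDHAF1 and COX14, whose largest calls were larger than those of UQCRC1, hold neither the NRF1 nor the ETS letters and are not shown. Each promoter is printed as 250 bases before the RefSeq start in the direction of the gene, with NRF1 and ETS matches in capitals. UQCRC1 (chr3:48609647-48609896, minus strand), which fell with the toxin and rose with MYDGF, holds 2 NRF1 matches, both on the strand opposite to the one printed, that begin 46 and 12 bases before the start. UQCRQ (chr5:132866392-132866641, plus strand), with the same pattern, holds 1 ETS match that begins 54 bases before it. COX10 (chr17:14069254-14069503, plus strand), which rose with the toxin, holds 2 ETS matches at 119 and 19 bases. COX20 (chr1:244835226-244835475, plus strand), which fell most, has none of the NRF1, ETS or YY1 letters in this window.
UQCRC1: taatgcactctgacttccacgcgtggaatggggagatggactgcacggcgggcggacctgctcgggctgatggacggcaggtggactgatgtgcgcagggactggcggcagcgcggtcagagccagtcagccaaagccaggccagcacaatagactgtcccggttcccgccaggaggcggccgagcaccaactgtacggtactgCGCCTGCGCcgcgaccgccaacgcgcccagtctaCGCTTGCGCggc
UQCRQ: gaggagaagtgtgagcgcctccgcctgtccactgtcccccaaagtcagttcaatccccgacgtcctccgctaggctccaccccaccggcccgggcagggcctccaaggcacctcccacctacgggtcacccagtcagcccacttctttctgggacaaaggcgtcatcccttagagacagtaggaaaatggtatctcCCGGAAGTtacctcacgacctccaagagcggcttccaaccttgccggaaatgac
COX10: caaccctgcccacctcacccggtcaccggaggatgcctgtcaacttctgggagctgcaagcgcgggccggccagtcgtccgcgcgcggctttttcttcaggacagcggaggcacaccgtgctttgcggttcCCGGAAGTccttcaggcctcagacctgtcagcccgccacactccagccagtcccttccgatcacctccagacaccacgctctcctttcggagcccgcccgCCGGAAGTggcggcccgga
COX20: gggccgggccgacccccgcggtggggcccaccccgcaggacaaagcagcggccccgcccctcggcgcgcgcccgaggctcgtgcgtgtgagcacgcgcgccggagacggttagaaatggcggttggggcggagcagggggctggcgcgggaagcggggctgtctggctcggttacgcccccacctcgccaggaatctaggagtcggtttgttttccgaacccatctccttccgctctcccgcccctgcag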

How the data were processed

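RNA was sequenced from 9 libraries, each made from 1.3 µg of total RNA per the labels' protocols. Raw counts for every gene and, beside them, FPKM were deposited by the authors in a single table; the FPKM follow from these counts, 1 length per gene and the library total. The tools named are HISAT2, CASAVA 1.8, edgeR and SAMtools 1.3.1, and the build mm10, which is of mouse, per the submitters' processing notes. The table lists human Ensembl IDs, and all 67 members overlap their GENCODE 29 position on GRCh38, so positions are those of the table read as GRCh38. The counter, its strand setting and its treatment of reads with several matches were not given in the sources used here: 35 members share exon bases with another gene, and 33 have 122 pseudogenes named after them. Genes without a symbol took 1.44 to 1.87% of counts and stayed in.

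Counts were tested with edgeR 4.0.16 (R 4.3.3): filterByExpr (minimum count 10, minimum total 15), TMM, and a quasi-likelihood fit of 3 groups to 9 libraries, with 6 residual degrees of freedom and Benjamini-Hochberg adjustment over 18267 genes. SE is the log2 change over the root of F. CPM uses the TMM totals. No libraries of a group agreed within sampling noise. Nothing says that they came from separate cultures, so each p-value reflects only how these samples spread, which may be technical. DESeq2 1.42.0, other scalings, no filter, fewer libraries and a replicate block were alternatives.

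Members and lists were chosen with earlier results of these data known. Within each complex, values are given for the called subunits and assembly factors with the largest changes (up to 6 and 3), isoform pairs, copy genes, the c ring and ATP5IF1. SDHB, SDHD's copies, CYC1, UQCRFS1, UQCR10, UQCRB, UQCRH, COX11, COX15, COX17, COX18, COX19, COX7A2L, COX7B and the complex V head subunits were chosen after values were seen. ATP5MF, ATP5MJ, ATP5MK, ATP5PF, ATP5PO and the partner gene NDUFA4 were as well. So were the overlapping genes LBHD1 and ITPR3, the pseudogenes of SDHA and UQCRFS1, the NRF1 motif length and the promoters shown.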

Additional observations from a re-analysis of the deposited data

How the results depend on the processing

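Fits with RLE size factors, library totals alone, TMM on totals over all genes (added after seeing the data), no filter, DESeq2 or the 6 libraries compared kept all counts of called members within 1.5 times: 5 to 6 higher and 19 to 24 lower with aristolochic acid, 11 to 15 higher and 1 lower with MYDGF over it, and 9 to 10 higher and 9 to 12 lower with MYDGF against untreated cells. Leaving out each library gave 5 to 7 higher and 19 to 25 lower, 11 to 22 higher and 1 to 3 lower, and 9 to 11 higher and 7 to 11 lower. The replicate block left 2 and 6, 0 and 0, and 5 and 4 calls. What a shared number means was not given in the sources used here, and groups of 3 libraries are too small to settle it. Same-numbered libraries had correlations of deviations from -0.165 to 0.018, and not every library correlated best with its own number. The toxin and MYDGF groups share 2 numbers. For COX7A2L, MYDGF against untreated, leaving out a library gave -0.447 to 0.594, and the sign changed without untreated 3. Calls kept in all alternatives other than the block numbered 22 of 29, 12 of 17 and 14 of 20. Counts under about 30 per library (COX6B2, ATP5IF1, ATP5MF-PTCD1) limit what could be detected.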
